A study of Mus musculus with 9 samples.

Results

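The liver of tumour-bearing mice given TSU68 was compared with the liver of tumour-bearing mice given vehicle. The comparison sets the 3 arrays titled T-TSU against the 3 titled T-Co, 6 of the 9 of the study. It takes in every probe set of the mouse array that is not a control. A probe set is a group of short oligonucleotides that reads 1 transcript, and 15838 of 22626 were bright enough to be tested, which covers 9225 of the 12393 genes on the array. Both groups were male BALB/c nu/nu mice, a strain that lacks a thymus, 6 weeks old when TK-4, a colon cancer of human origin, was implanted into the cecal wall. Treatment began on day 7 and lasted 1 week, with TSU68 by mouth at 400 mg/kg per day in T-TSU and vehicle in T-Co. The remaining 3 arrays, NT-Co, came from mice without a tumour on vehicle, and serve below as a reference level. They also entered the fit, where they add to the estimate of spread behind each SE and p-value. Whether every array had an animal of its own is not stated in the labels. The p-values therefore describe the spread among these arrays, which may be technical. The tumour is 1 human line, and treated mice without a tumour are not analysed here, so an action of TSU68 on the liver itself and one through the tumour cannot be told apart.

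TSU68, taken by mouth, blocks the tyrosine kinase activity of receptors for VEGF, PDGF and FGF, through which blood vessels, pericytes and stromal cells receive growth signals. The liver answers a distant tumour and circulating cytokines with the acute phase response, in which hepatocytes secrete more of a set of plasma proteins under interleukin-6 and STAT3. Inflammation is known to lower many hepatocyte enzymes of drug, steroid and lipid metabolism. Male mouse liver also has its own gene programme, kept up by pulses of growth hormone through STAT5, and Hsd3b5 and several carboxylesterases belong to it.

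The deposited values had been scaled to a common trimmed mean, and array medians lay between 107.1 and 119.3. The mean correlation of an array with its group was 0.945 to 0.957. Among the T-Co arrays, replicate 13 lay far out on principal component 2 of all 9 arrays (16.3% of the variance), at 48.1 against -29.9 to 17.5 for the others. The leading counts are therefore given with and without it. The ratio of beta-actin signal between the 3′ and 5′ ends, a sign of RNA integrity, overlapped between T-Co (1.88 to 2.10) and T-TSU (1.79 to 2.16). It was higher on every NT-Co array (2.26 to 3.14), and its part in the positions relative to NT-Co given below was not tested. Hepatocyte markers were bright on every array, as a liver sample requires, with Ahsg between 22828 and 35921 in all 6. In what follows, T-Co values are given for replicates 9, 10 and 13 and T-TSU values for replicates 2, 12 and 14, in that order. Values are linear array intensities, differences are T-TSU minus T-Co on the log2(intensity + 7.92) scale ± SE, and adjusted p-values are from limma, adjusted by Benjamini-Hochberg across the 15838 tested probe sets.

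TSU68-treated livers differed from vehicle-treated ones at few single probe sets. At an adjusted p under 0.05, 6 probe sets rose and 2 fell, 0.0505% of those tested, and they belonged to 6 genes and to 1 probe set shared by more than 1 gene. The genes that rose were Ces1d, Hsd3b2, Marveld1, Hagh and Nat8f5, and the gene that fell was Sco2. At an adjusted p under 0.1 there were 30 probe sets, 0.189% of those tested, 21 higher and 9 lower, for 26 genes. On all 30 the T-TSU arrays did not overlap with the T-Co arrays, as on 14.1% of all probe sets tested. The 30 were picked by the p of this same difference. Of them, 18 differed at least 2-fold. Over all probe sets tested, 243 were at least 2-fold higher and 274 at least 2-fold lower at any p. At an unadjusted p under 0.05 there were 1658 probe sets (10.5%). The median difference over the 9225 genes was 0.00, and the 5th and 95th percentiles were -0.66 and 0.64. The count of 8 changed with single arrays. It was 3 without T-Co replicate 13, 11 without T-Co replicate 9, 32 without T-Co replicate 10 and 58 without T-TSU replicate 12. It was 0 without T-TSU replicate 2, T-TSU replicate 14, NT-Co replicate 8 or NT-Co replicate 11. The count at 0.1 lay between 0 and 195 over the same settings. A fit of only the T-TSU and T-Co arrays gave 0 at 0.05 and 6 at 0.1, and one without the intensity trend gave 0 and 2. The volcano plot shows the 30 probe sets among all those tested.

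**Figure D1:**
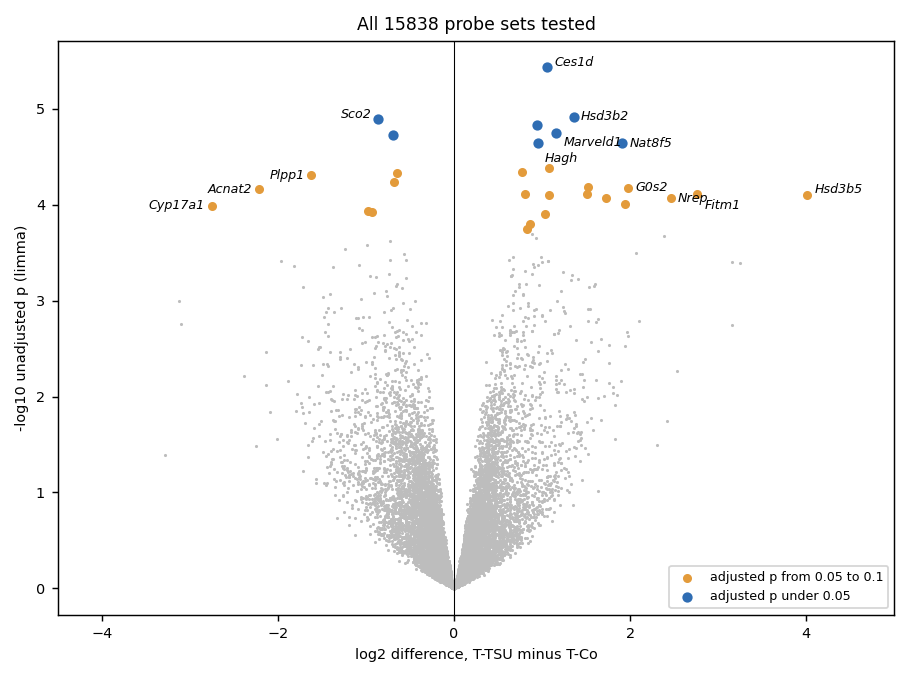
Each point is 1 of the 15838 probe sets tested, with the log2 difference T-TSU minus T-Co on the x axis and -log10 of the unadjusted limma p on the y axis. The 8 blue points have an adjusted p under 0.05 and the 22 orange points one from 0.05 to 0.1, and Hsd3b5 lies farthest to the right among them at 4.01.

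Ces1d encodes a liver carboxylesterase that hydrolyses ester drugs and triglyceride. Its probe set 1435370_a_at read 3064, 3569 and 2646 in T-Co and 5883, 6086 and 7356 in T-TSU, a rise of 1.06 ± 0.13 (2.08-fold, adjusted p = 0.0453). All T-TSU arrays lay above all T-Co arrays, and near the NT-Co mean of 6088 ± 304 (SD, n = 3). A second Ces1d probe set, 1449081_at, rose by 0.94 ± 0.14 (adjusted p = 0.0453), from 4136, 4292 and 3334 to 7599, 6773 and 8104, where T-TSU lay above NT-Co as well (5835). The remaining probe set of the gene differed by 0.57.

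Hsd3b2 belongs to the 3-beta-hydroxysteroid dehydrogenases, which act on steroid hormones. Probe set 1425127_at read 368, 372 and 254 in T-Co and 906, 813 and 842 in T-TSU, a rise of 1.36 ± 0.19 (2.57-fold, adjusted p = 0.0453). The 3 T-TSU values lay close together and overlapped with NT-Co (885 ± 186). Nat8f5, of the N-acetyltransferase 8 family, had the largest rise among the called genes. Probe set 1424811_at read 155, 206 and 130.1 in T-Co and 778, 367 and 864 in T-TSU, 1.91 ± 0.29 higher (adjusted p = 0.0453). Replicate 12 was the lowest T-TSU array and still above every T-Co array, while replicates 2 and 14 reached the range of NT-Co (mean 891).

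Hagh encodes glyoxalase II, which with glyoxalase I clears methylglyoxal. Probe set 1437519_x_at read 3610.1, 2424 and 2904 in T-Co and 5242, 5611 and 6259 in T-TSU, a rise of 0.95 ± 0.14 (adjusted p = 0.0453). The groups did not overlap, and T-TSU lay near the NT-Co mean of 5413. The brightest probe set of Hagh differed by 0.65 ± 0.14 (adjusted p = 0.135) and a further one by 0.32. Marveld1 encodes a membrane protein with a MARVEL domain. Probe set 1439381_x_at read 946, 1085 and 802 in T-Co and 2253, 2071 and 1984 in T-TSU, a rise of 1.16 ± 0.17 (adjusted p = 0.0453). T-TSU exceeded both T-Co and NT-Co (1151), and the other probe set of the gene differed by 0.81.

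Sco2 is a copper chaperone needed to assemble cytochrome c oxidase of the respiratory chain. Probe set 1432181_s_at read 1899, 1739.6 and 1829 in T-Co and 1024, 1038 and 939.9 in T-TSU, a fall of -0.86 ± 0.12 (adjusted p = 0.0453). Here T-TSU moved away from the reference, since the NT-Co mean was 2596. Sco2 stood alone in its pathway. Of 17 genes tested for copper handling and cytochrome c oxidase assembly, Sco2 was the only one with an unadjusted p under 0.05, and Surf1, another assembly factor, differed by 0.17 ± 0.15. Of 71 genes of the respiratory chain and ATP synthase, 4 were higher and 0 lower at that threshold, with a median of 0.04. The count of 4 was 1 without T-Co replicate 13, 2 without T-TSU replicate 14, 2 with only the T-TSU and T-Co arrays and 1 without the intensity trend. The other probe set that fell, 1416239_at, is annotated to both Ass1, the urea cycle enzyme argininosuccinate synthase, and a predicted gene. It read 21785, 25278 and 21994 in T-Co and 13214, 14417 and 15200.3 in T-TSU, -0.69 ± 0.10 lower (adjusted p = 0.0453).

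None of the 6 genes kept an adjusted p under 0.05 in every setting tried. Out of 19 alternatives, the first Ces1d probe set passed in 11, Hsd3b2 in 9, Sco2 in 8, and Marveld1, Hagh and Nat8f5 in 7 each, with the highest adjusted p of each at 0.305 to 0.309 without the intensity trend. The sizes moved less. Over the same alternatives Ces1d ranged from 0.95 to 1.17, Hsd3b2 from 1.19 to 1.46, Sco2 from -0.89 to -0.82 and Nat8f5 from 1.69 to 2.29.

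**Figure D2:**
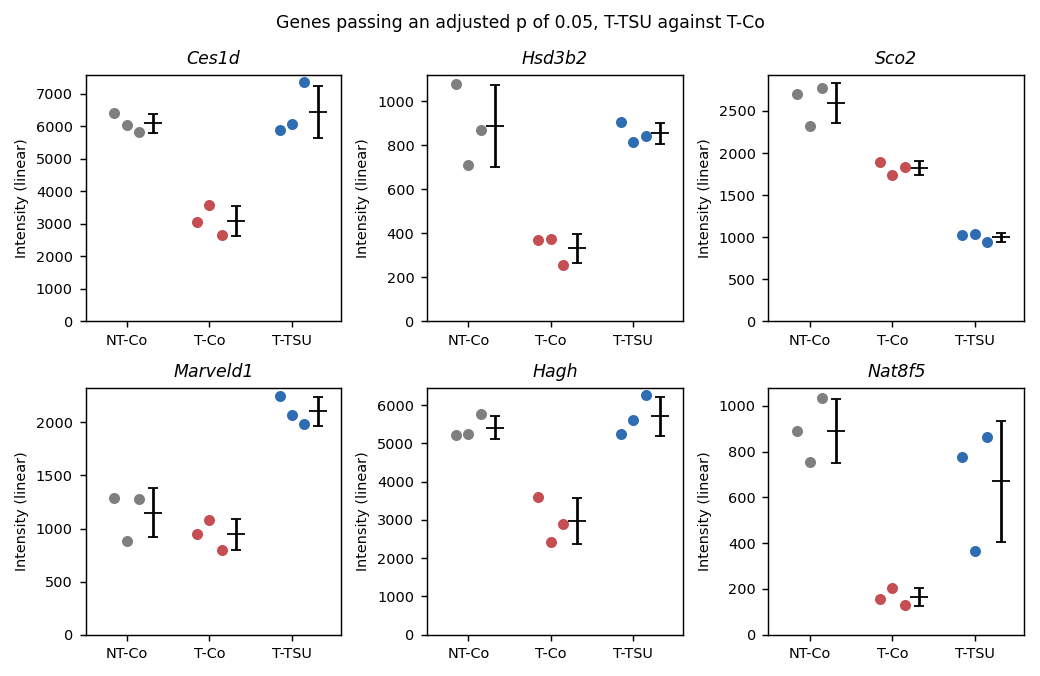
Linear intensity (y axis) of the 6 genes with an adjusted p under 0.05 on each array, by group (x axis), with 1 point per array and the mean ± SD of 3 arrays in black. The blue T-TSU points lie above the red T-Co points for Ces1d, Hsd3b2, Marveld1, Hagh and Nat8f5 and below them for Sco2.

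Promoters are shown for the 2 Hsd3b genes, which lie on the same chromosome and both read higher in T-TSU, for Sco2, the called gene that fell, and for Ctsl, the lysosomal protease cathepsin L, which read lower in T-TSU and whose window held matches to more than 1 motif. Each runs 5′ to 3′ from 250 bases before the gene start to 50 after it, from RefSeq on GRCm38.p6. They are chr3:98724494-98724793 (minus strand) for Hsd3b2, chr3:98645485-98645784 (minus) for Hsd3b5, chr15:89373842-89374141 (minus) for Sco2 and chr13:64370471-64370770 (minus) for Ctsl. Capitals mark the longest run of letters that the Hsd3b promoters share and, in Sco2 and Ctsl, the matches to the motifs named below.
Hsd3b2: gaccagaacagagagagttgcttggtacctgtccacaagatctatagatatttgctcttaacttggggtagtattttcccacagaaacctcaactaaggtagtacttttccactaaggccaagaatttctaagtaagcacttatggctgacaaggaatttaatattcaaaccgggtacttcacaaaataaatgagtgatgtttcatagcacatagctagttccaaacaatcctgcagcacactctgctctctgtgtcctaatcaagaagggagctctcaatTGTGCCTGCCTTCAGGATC
Hsd3b5: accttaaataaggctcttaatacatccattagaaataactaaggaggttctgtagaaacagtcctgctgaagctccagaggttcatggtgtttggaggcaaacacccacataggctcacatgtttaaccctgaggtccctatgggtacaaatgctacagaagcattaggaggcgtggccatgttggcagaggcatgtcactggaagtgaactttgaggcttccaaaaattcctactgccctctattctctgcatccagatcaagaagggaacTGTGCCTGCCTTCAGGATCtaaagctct
Sco2: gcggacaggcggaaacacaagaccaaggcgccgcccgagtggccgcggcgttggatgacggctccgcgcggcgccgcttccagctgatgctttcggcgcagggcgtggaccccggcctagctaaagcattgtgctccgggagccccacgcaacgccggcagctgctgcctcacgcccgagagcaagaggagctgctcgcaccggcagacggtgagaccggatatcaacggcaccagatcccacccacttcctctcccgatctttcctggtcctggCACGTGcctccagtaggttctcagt
Ctsl: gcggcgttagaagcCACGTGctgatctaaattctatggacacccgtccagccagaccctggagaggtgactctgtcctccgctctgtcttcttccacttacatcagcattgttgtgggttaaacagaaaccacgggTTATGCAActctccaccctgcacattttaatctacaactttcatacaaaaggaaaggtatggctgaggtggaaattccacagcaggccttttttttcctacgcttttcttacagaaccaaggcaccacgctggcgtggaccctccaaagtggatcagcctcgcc
The shared run of the Hsd3b promoters is 19 bases long. Ungapped alignments were tried over a limited range of shifts. At the best of them, a shift of -2, 101 of 298 positions (33.9%) were identical, and this shift does not line up the run. This is a description of the letters only. Motifs were searched on both strands, and they can overlap. Promoters on 1 chromosome were left out of the search and of the counts that follow. The STAT5 site TTCNNNGAA was in 8.3% of the 32851 promoters searched and the E-box CACGTG in 7.15%. The D-box TTATGNAA, bound by Dbp and its relatives, was in 3.38% and the C/EBP site TTGCNNAA in 10.8%. Of the 26 genes with an adjusted p under 0.1, 19 had a promoter among those searched. Among these 19, some with several starts, the STAT5 site was found for 1, the E-box for 3, the D-box for 5 and the C/EBP site for 4. Over the 7489 tested genes with a promoter searched the shares of genes were 8.37%, 11.8%, 2.8% and 10.7%. Hsd3b2, Hsd3b5, Nat8f5, Hagh and Marveld1 held none of the motifs in these windows.

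The next genes, with adjusted p-values from 0.0593 to 0.0865, did not pass the threshold of 0.05 and are described by their values. Several are hepatocyte genes of steroid, lipid and drug handling that read higher in T-TSU. Hsd3b5, the male-specific member of the Hsd3b family, read 350.5, 476 and 61.1 in T-Co and 8127, 1253 and 4919.6 in T-TSU. The difference was 4.01 ± 0.69 (adjusted p = 0.0593), the groups did not overlap, and the T-TSU arrays differed widely among themselves. Fitm1, which helps form lipid droplets, read 267, 60 and 39.3 against 678, 735 and 532, a difference of 2.76 ± 0.48 (0.0593). T-TSU values of Fitm1 were close to the NT-Co mean of 560.5. G0s2, an inhibitor of the triglyceride lipase ATGL, read 394, 223 and 206 against 1253, 1067 and 883, a difference of 1.98 ± 0.33 (0.0593). All G0s2 values of T-TSU were above T-Co and below NT-Co (3446). Abcg2, an efflux pump of drugs and urate, read 1538, 1156 and 959.8 against 2732, 2181 and 2756 (1.08 ± 0.17, 0.0593). Serpina12, the adipokine vaspin, read 106, 130.5 and 151 against 589.7, 271 and 348 (1.52 ± 0.26, 0.0593).

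Regulators were among them too. Ghr, the growth hormone receptor, read 1089, 1245 and 1014 in T-Co and 2666, 1869 and 2632 in T-TSU (1.08 ± 0.19, adjusted p = 0.0593). Its brightest probe set read 6945, 7033 and 5033 against 13091, 9642 and 11739 (0.86 ± 0.16, 0.0865), so 2 probe sets of Ghr gave the same order with no overlap. Hhex, a homeobox factor of liver and blood vessel development, read 1309.8, 859.9 and 970.0 against 2488, 3335 and 3082 (1.51 ± 0.26, 0.0593). Wee1, a kinase that holds back mitosis and is under clock control, differed by 1.94 (0.0651), Nrep by 2.46 (0.0593) and Lect2, a hepatokine, by 1.03 (0.0708). For Wee1 and Nrep T-TSU lay above NT-Co as well as above T-Co.

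Lower in T-TSU with no overlap were Plpp1, Acnat2, Ctsl, Amy1, Cyp17a1, Retreg1 and Serpina3n. Plpp1, a phosphatidate phosphatase of the plasma membrane, read 391, 365 and 614 in T-Co and 132, 101 and 202 in T-TSU (-1.62 ± 0.27, adjusted p = 0.0593). Acnat2, a peroxisomal acyltransferase, read 892, 747 and 1924 against 170.1, 429 and 162 (-2.21 ± 0.38, 0.0593). Both lay below the NT-Co range. Cyp17a1, the steroid 17-alpha-hydroxylase, read 796, 1081 and 2647 against 126, 399 and 132 (-2.75 ± 0.49, 0.0651), with NT-Co at 121. Ctsl read 17337, 16263 and 19927 against 10867, 11909.9 and 11280.1 (-0.65 ± 0.11, 0.0593), with NT-Co at 11708. Retreg1, a receptor for autophagy of the endoplasmic reticulum, read 5846, 7882 and 9778 against 3513, 4575 and 3613 (-0.98 ± 0.18, 0.0700), and these stayed above NT-Co (2179). Just outside 0.1 were Inmt (2.38, adjusted p = 0.105) and Alad, an enzyme of haem synthesis (0.93, 0.107).

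Set against the livers without a tumour, T-TSU overlapped with NT-Co at 18 of the 30 probe sets and lay between both groups at 2. At the other 10 it lay beyond NT-Co, outside its range in the direction of the difference from T-Co. The beyond group held Sco2, Marveld1, Plpp1, Acnat2, Wee1, Nrep, 1 Ces1d probe set, 1 Ghr probe set and the 2 probe sets with no single gene. For Sco2, Wee1 and 1448451_at, 1 of those 2, the T-Co mean lay between the NT-Co and T-TSU means. The 2 probe sets where T-TSU lay between both groups were those of G0s2 and Retreg1. Single arrays differed in how far they went. Among the 21 higher probe sets, T-TSU replicate 12 was the lowest T-TSU array at 13 and T-TSU replicate 2 the highest at 13, and T-Co replicate 13 was the lowest T-Co array at 17. Among the 9 lower ones, T-TSU replicate 12 was the highest T-TSU array at 7 and T-Co replicate 13 the highest T-Co array at 7. These 30 were chosen by the p of their T-TSU against T-Co difference. It uses the T-Co and T-TSU arrays and the spread of NT-Co, so the positions are a description.

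**Figure D3:**
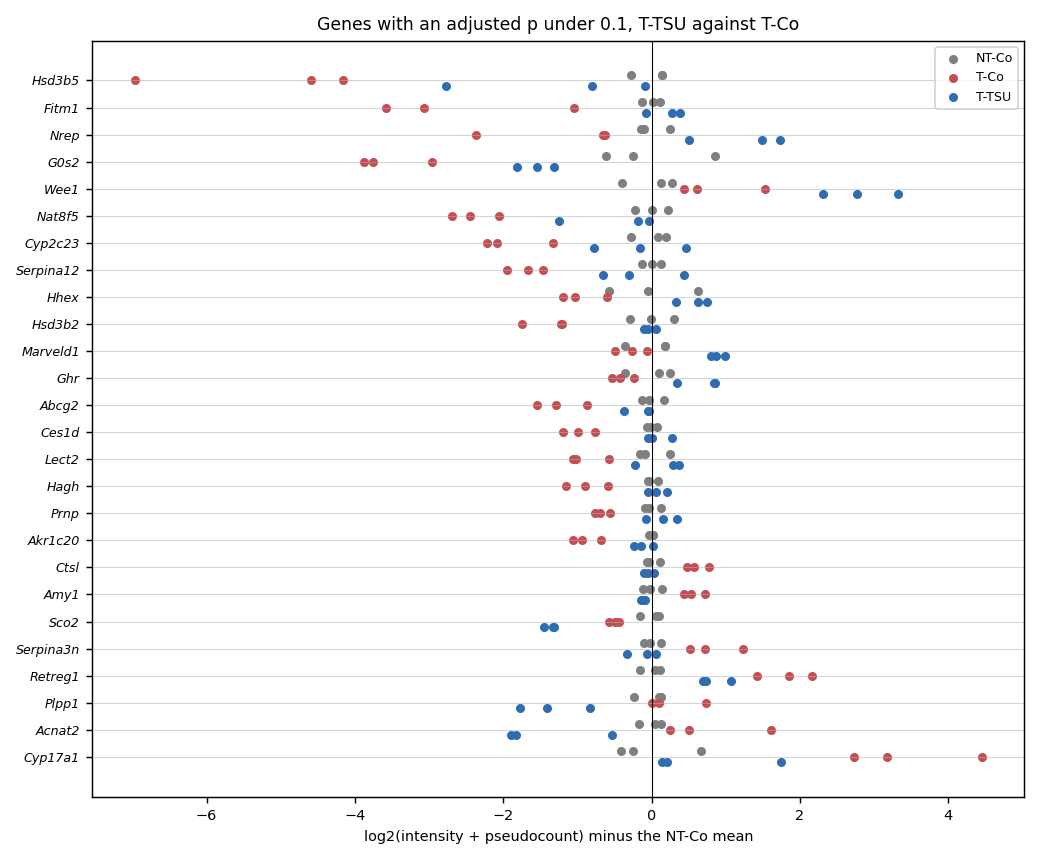
Each row is 1 of the 26 genes with an adjusted p under 0.1, ordered by the size of the difference from Hsd3b5 (4.01) to Cyp17a1 (-2.75), and each point is 1 array, as log2(intensity + 7.92) minus the NT-Co mean of that gene. Blue T-TSU and red T-Co points do not overlap in any row, and blue points overlap with the grey NT-Co points in most rows.

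To describe pathways, 51 lists of liver genes were counted, with 1 probe set per gene, the brightest. For comparison, 5.71% of all 9225 genes tested were higher and 5.75% lower at an unadjusted p under 0.05, and the arrays did not overlap for 7.08% in the higher and 7.54% in the lower direction. Members below are counted at this unadjusted threshold unless stated, and those that carry no adjusted p under 0.05 are given by their values. The lists were written with earlier results of these arrays known, and 6 of the 6 called genes are in one of them, so the counts are descriptive. Kupffer cell markers and acute phase proteins had many members lower in T-TSU and none higher. Male-biased genes and conjugating enzymes had most of their differing members higher.

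**Figure D4:**
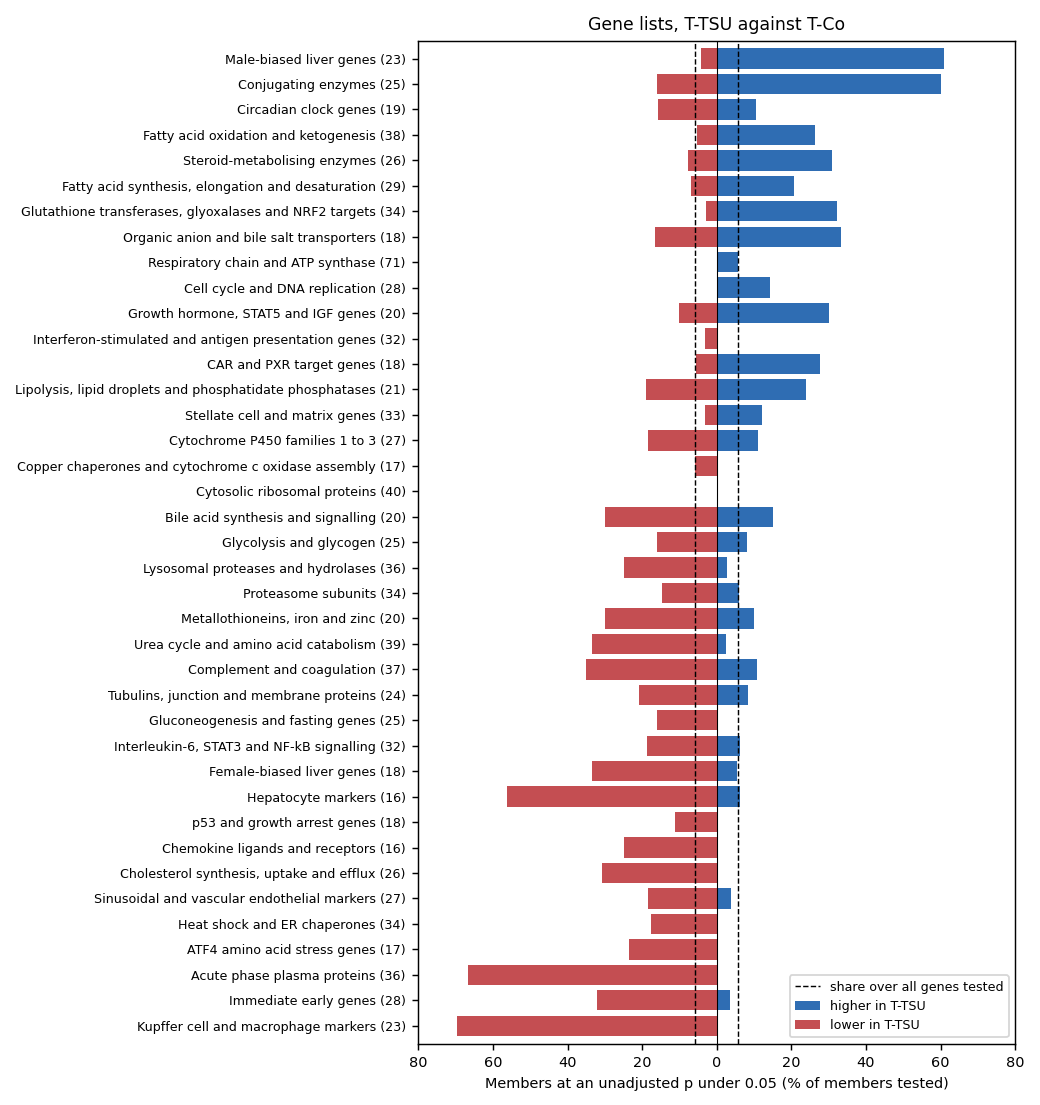
Bars give the percent of tested members of each gene list (number tested in brackets) with an unadjusted limma p under 0.05, higher in T-TSU to the right and lower to the left, with lists of 16 or more tested members ordered by their median difference. Dashed lines mark the share over all genes tested, 5.71% higher and 5.75% lower, and the longest bars are 16 of 23 Kupffer and macrophage markers and 24 of 36 acute phase genes on the left and 14 of 23 male-biased genes on the right.

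Male-biased liver genes included Hsd3b2 and Nat8f5 and had 14 of 23 members higher and 1 lower, with a median of 0.91. Arrays did not overlap for 10 in the higher direction. Without T-Co replicate 13 the counts were 12 higher with a median of 0.60, and without T-TSU replicate 2 there were 10 higher. The per-array median of the list, relative to NT-Co, was -0.81, -0.78 and -1.57 in T-Co and 0.02, -0.66 and -0.09 in T-TSU, so T-TSU replicate 12 lay nearest to T-Co. Keg1, an acyltransferase-like gene of male liver and kidney, read 2445, 2037 and 976 in T-Co and 4413, 3268 and 5439.6 in T-TSU, and Slco1a1, an organic anion transporter, read 1109, 2130.2 and 92.9 against 7173, 3762 and 6384. Neither overlapped. Cyp4a12a, a fatty acid omega-hydroxylase, read 3603, 4574 and 879.9 against 8611, 5030.1 and 7355. Elovl3, a fatty acid elongase of male liver, did not share the pattern. It read 1199, 1048 and 315 against 1332, 840.1 and 1579 (0.71 ± 0.40, adjusted p = 0.577), with NT-Co at 13758. The 1 lower member was Bcl6, a repressor of female-biased genes, at 867, 785 and 532 against 467, 194 and 192 (-1.43 ± 0.37).

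Female-biased genes had 6 of 18 members lower and 1 higher, with a median of -0.21. The median was -0.08 without T-Co replicate 13 and -0.41 without T-Co replicate 10, and the 1 higher member became 3 after centring. Beside Cyp17a1, these were the transporter Slco1a4 (-0.93 ± 0.24), the oxysterol hydroxylase Cyp39a1 (-1.60 ± 0.46), the cofactor Trim24 (-0.57 ± 0.19), Cux2 and Sult1e1. Slco1a4 read 1580.2, 1214 and 1325 in T-Co and 563, 1134 and 564 in T-TSU, where replicate 12 was close to T-Co. In the growth hormone and STAT5 list, 6 of 20 members were higher and 2 lower, with a median of 0.03. Foxa2 and Foxa1, pioneer factors of hepatocyte enhancers, read higher with no overlap. Foxa2 read 276, 387 and 379 against 543, 695 and 726 (0.90 ± 0.19, adjusted p = 0.129), and Foxa1 differed by 1.18 ± 0.31 (0.201). Cish, a target of STAT5, read 257, 323 and 312 against 457, 751 and 1097 (1.27 ± 0.46). Igf1 differed by -0.07, Stat5b by -0.09 and Socs2, another STAT5 target, by -0.25. Igfbp1, a fasting and stress binding protein for IGFs, read 5907, 15972 and 23565 against 1609, 4807 and 3319 (-2.14 ± 0.59, adjusted p = 0.223), still above NT-Co at 534.

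Enzymes that conjugate drugs and hormones, led by Nat8f5, had 15 of 25 members higher and 4 lower, with a median of 0.52. Without T-Co replicate 13 it was 12 higher with a median of 0.32, and without T-TSU replicate 2 or T-TSU replicate 14 it was 10 higher. The 4 lower members, Sult1a1, Nnmt, Gnmt and Sult1e1, became 2 without T-TSU replicate 2 and 2 without the intensity trend. Inmt, an indolethylamine methyltransferase, read 4258, 3155 and 804 in T-Co and 15354, 8225 and 12315 in T-TSU (2.38 ± 0.46, adjusted p = 0.105). Nnmt, the nicotinamide methyltransferase, went the other way, at 5558, 5504 and 8781 against 771, 3710.1 and 2950.1. Neither gene's groups overlapped. All 5 tested Nat8 family genes and all 6 tested Ugt2 glucuronosyltransferases differed above 0, and 4 and 5 of them at an unadjusted p under 0.05. Ugt2b1 read 11935, 12087 and 4351 against 20496, 15106 and 20330.4. Members of these families are close in sequence, so their probe sets can share signal.

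The carboxylesterase list, which includes Ces1d, had 5 of 9 members higher and 0 lower, with a median of 0.40. Ces2e read 500.5, 704 and 459.6 in T-Co and 1342, 769 and 1207 in T-TSU (0.97 ± 0.22, adjusted p = 0.146). Ces1e read 963, 1015 and 287 against 2219.9, 1538 and 2069 (1.54 ± 0.37, 0.177), and Ces1f read 3434, 4472 and 261 against 11387, 8044 and 8775 (2.53 ± 0.75, 0.266). None of the 3 overlapped, and T-Co replicate 13 was the lowest in each. The family did not move as a block, since Ces1c (-0.08 ± 0.11) and Ces1g (0.13 ± 0.11) were near 0. Glutathione transferases, glyoxalases and NRF2 targets, the list of Hagh, had 11 of 34 members higher and 1 lower, with a median of 0.14. The count of 11 was 7 without T-TSU replicate 2. Of 7 Gstm genes tested, 6 were above 0 and those 6 had an unadjusted p under 0.05, for example Gstm6 at 889, 879.7 and 377 against 2093, 1104 and 1780.0 (1.26 ± 0.30). The NRF2 markers Nqo1 (0.36 ± 0.30), Srxn1 (-0.13) and Txnrd1 (-0.14) did not share this. Steroid-metabolising enzymes had 8 of 26 higher and 2 lower, with a median of 0.24, led by Hsd3b2, Akr1c20 and Hsd3b5. Hsd3b3 read 3445, 2439.7 and 1671 against 5953, 3348 and 6036, whereas the bile acid enzyme Hsd3b7 differed by -0.10 ± 0.17.

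Classical drug-response genes differed in both directions. Of 27 cytochrome P450 genes of families 1 to 3, 3 were higher and 5 lower, with a median of -0.05. The 3 became 1 without T-Co replicate 13 or T-TSU replicate 2 and 5 after quantile normalization. The 5 became 3 without T-Co replicate 9, T-TSU replicate 2 or T-TSU replicate 14, 3 after centring or quantile normalization and 2 without the intensity trend. Cyp1a2, a target of the aryl hydrocarbon receptor, read 11440.0, 12854 and 10236 in T-Co and 18802, 15438 and 15711 in T-TSU (0.53 ± 0.14, adjusted p = 0.201), with no overlap. Cyp1a1, the most inducible target of that receptor, read 72.9, 65.6 and 103 against 66.9, 71.8 and 70.1. Cyp2b10, the standard target of CAR, read 1897, 1566 and 5908 against 475, 2768 and 1134 (-1.18 ± 0.57, 0.5). Cyp3a11, the standard target of PXR, differed by -0.07 ± 0.10, and by 0.10 after quantile normalization. Of 18 CAR and PXR targets, 5 were higher and 1 lower, with a median of 0.01. Gstm3 (1.09 ± 0.26), Gsta2 (1.22 ± 0.38) and Ephx1 (0.61 ± 0.22) were among the higher, and Slco1a4 was the lower. The 5 became 2 without T-TSU replicate 2 and 3 without the intensity trend. The 1 became 2 without T-Co replicate 10, T-TSU replicate 12 or T-TSU replicate 14. Of 18 transporters of organic anions and bile salts, 6 were higher and 3 lower. The sterol pumps Abcg5 (0.75 ± 0.18) and Abcg8 (0.81 ± 0.17) were higher without overlap, and the bile salt export pump Abcb11 read 7656, 6389 and 8205 against 5982, 4445 and 4489.5 (-0.58 ± 0.14, 0.175).

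Acute phase plasma proteins had 24 of 36 members lower and 0 higher, with a median of -0.42 and 20 members without overlap. Without T-Co replicate 13 there were 21 lower with a median of -0.31. The 24 became 17 without T-TSU replicate 2, 18 without the intensity trend and 19 after quantile normalization. The per-array median relative to NT-Co was 0.40, 0.33 and 0.80 in T-Co and -0.12, 0.06 and -0.02 in T-TSU. Serpina3n, a serine protease inhibitor, read 12132, 13999 and 19835 in T-Co and 6705, 8851 and 8134 in T-TSU (-0.93 ± 0.17, adjusted p = 0.0700), with NT-Co at 8485. Lbp, which binds bacterial lipopolysaccharide, read 6972, 8128 and 11822 against 2923, 6129.7 and 4091 (-1.06 ± 0.25, 0.169). The iron hormone Hamp read 19950.0, 17681 and 27931 against 15522, 11038 and 11469 (-0.77 ± 0.17, 0.151). These 3 did not overlap between the groups. All 3 fibrinogen chains read lower by a little with no overlap, Fgb by -0.38 ± 0.10, Fgg by -0.32 ± 0.08 and Fga by -0.29 ± 0.08. Saa1 read 21549.8, 22549.5 and 36099.7 against 7255, 20514 and 15956 (-0.96 ± 0.32, 0.324). Lcn2 read 8154, 9940.0 and 23048 against 1553, 10949 and 3523 and overlapped, with T-TSU replicate 12 at the level of T-Co.

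Other inflammatory lists held fewer such genes. Complement and coagulation had 13 of 37 lower and 4 higher, with a median of -0.16, or -0.10 without T-Co replicate 13. The 13 became 8 after centring the arrays, 6 after quantile normalization and 8 without the intensity trend, and the 4 became 2 without T-TSU replicate 2 or without the trend. The list includes the fibrinogens, and its higher members were C6 (0.91 ± 0.23), F11 (0.63 ± 0.16), C8a and Klkb1. Of 32 genes of interleukin-6, STAT3 and NF-kB signalling, 6 were lower and 2 higher, with a median of -0.20, or -0.09 without T-Co replicate 13. The 6 became 2 without T-Co replicate 13 and 3 without T-TSU replicate 2 or T-TSU replicate 14. Nfkbiz, an inducible NF-kB cofactor, read 747, 776 and 869.9 in T-Co and 281, 641 and 319 in T-TSU (-1.03 ± 0.25, adjusted p = 0.189). Of 16 chemokine genes, 4 were lower and 0 higher, and 2 lower without T-TSU replicate 2. Cxcl1, which attracts neutrophils, read 928, 3231 and 4340.2 against 792, 603 and 312 (-2.13 ± 0.67, 0.304), with no overlap. Ccl6 read 431, 487 and 916 against 112, 279 and 261 (-1.48 ± 0.36, 0.189). Interferon-stimulated genes gave 1 of 32 lower and 0 higher by limma, with a median of 0.02, and these values depended on single T-Co arrays. Without T-Co replicate 10 there were 7 higher, with a median of 0.19. Without T-Co replicate 13 there were 5 lower, with a median of -0.19, and without T-Co replicate 9 there were 4 lower.

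Markers of Kupffer cells and macrophages, the resident phagocytes of the liver, had no member above 0. Differences were below 0 for 23 of 23 members, 16 of them at an unadjusted p under 0.05 and 14 without overlap, with a median of -0.79. The count was 10 without T-Co replicate 13 (median -0.57) and 9 without T-TSU replicate 2. No member had an adjusted p under 0.1. C1qa, C1qb and C1qc, chains of complement C1q that macrophages make, all read lower without overlap. C1qa read 1132, 1445 and 1992 in T-Co and 290.3, 782 and 684 in T-TSU (-1.45 ± 0.35, adjusted p = 0.181). Vsig4, a complement receptor of resident macrophages, read 1340.5, 1294 and 2373 against 453, 1100.5 and 849 (-1.09 ± 0.32, 0.258). Clec4f, a lectin specific to Kupffer cells in the mouse, read 1674, 1793 and 2068 against 647, 1372 and 1294 (-0.81 ± 0.28). In each of the 3, T-TSU replicate 2 was the lowest array. Adgre1, which encodes F4/80, differed least (-0.21). The summed intensity of 24 markers was 18906 to 25997 in T-Co, 10647 to 16885 in T-TSU and 14827 to 19124 in NT-Co, with no overlap between T-TSU and T-Co. Over the 10 defining markers alone the sums were 10094 to 15999 in T-Co and 4490.2 to 10201 in T-TSU, which overlapped. In whole liver, fewer cells of a type and less of their RNA per cell cannot be told apart.

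Macrophage markers were lower alongside the acute phase and chemokine lists, and their part in those values was not tested. Neutrophil markers had 3 of 8 members lower and 0 higher, the calprotectin genes S100a8 (310.1, 441 and 864 against 62.6, 238 and 189.8) and S100a9 (257, 419.9 and 823 against 106, 182 and 200.1) and Lcn2, which hepatocytes also make. Of the defining neutrophil markers, Camp, Ltf and Cxcr2 were below the filter. The summed intensity of the full list, with Lcn2 the brightest part, overlapped (9210.3 to 25640.1 in T-Co, 2321 to 11973 in T-TSU). The defining markers, which leave out Lcn2, summed to 942 to 2329 in T-Co and 605 to 989 in T-TSU and overlapped too. T, B and NK cell markers were dim. Of 8 tested, 0 were higher or lower by limma, 2 were lower without T-TSU replicate 12, and Cd3d, Cd4 and Cd8a were below the filter. Cholangiocyte markers had 2 of 9 above the filter.

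Endothelial markers, of interest because vessels carry VEGF receptors, had 5 of 27 members lower and 1 higher, with a median of -0.27, or -0.14 without T-Co replicate 13. The 5 became 3 without T-Co replicate 13 or T-TSU replicate 2, 3 with array weights and 3 with a filter at the 50th percentile. Clec4g, a lectin of sinusoidal endothelium, read 1186, 1456 and 1949 in T-Co and 791, 993 and 1075 in T-TSU (-0.66 ± 0.21, adjusted p = 0.318). Bmp2, which these cells secrete to induce hepcidin, read 259, 335 and 394 against 173, 215 and 216 (-0.68 ± 0.22, 0.321). Hamp, the hepcidin gene, is given above. Summed endothelial intensity was 6611 to 10061 in T-Co and 4719 to 7025 in T-TSU and overlapped. Over the 8 defining markers it was 2752 to 4436 in T-Co and 1874 to 2681 in T-TSU, without overlap. Stellate cell and matrix genes had 4 of 33 higher and 1 lower, with a median of -0.02, or 0.12 without T-Co replicate 13. The 4 became 2 without T-Co replicate 13 or T-TSU replicate 12, and the 1 became 3 without T-Co replicate 9. The defining stellate markers summed to 1906 to 2085 in T-Co and 2446 to 2669 in T-TSU, without overlap, and the full list overlapped (28853 to 33089 against 27468 to 31509). Lum, a collagen-binding proteoglycan, read 338, 307 and 335 against 555, 490.3 and 523 (0.67 ± 0.16, 0.177), and Col3a1 read 356, 271 and 366 against 513, 418 and 602.

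Hepatocyte markers had 9 of 16 members lower and 1 higher at small sizes, with a median of -0.22. The 9 became 3 after centring or quantile normalization, 2 without the intensity trend, 4 with no filter, 5 without T-Co replicate 9 and 3 without T-TSU replicate 2. Summed hepatocyte intensity was 425069 to 457915 in T-Co, 383984 to 415170.3 in T-TSU and 376536 to 412731 in NT-Co. Over the defining markers it was 249489 to 253837 in T-Co and 198679.7 to 226898 in T-TSU. Neither sum overlapped between T-TSU and T-Co. Ahsg, a secreted glycoprotein, read 31387, 31774 and 35921 in T-Co and 22869, 27260.2 and 22828 in T-TSU (-0.44 ± 0.10, adjusted p = 0.173). The higher member was Fabp1, the liver fatty acid-binding protein, at 33024, 33026 and 18453 against 42375, 38807 and 37916 (0.54 ± 0.19).

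**Figure D5:**
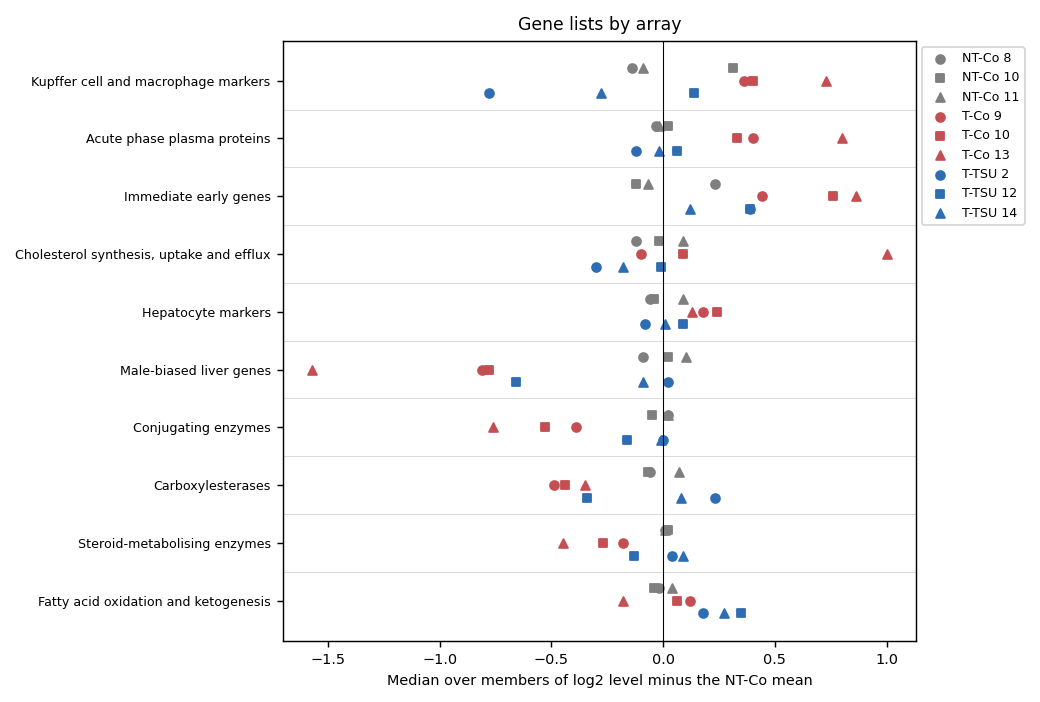
For 10 gene lists (rows), each point is the median over tested members of the log2 level on 1 array minus the NT-Co mean, with colour for the group and shape for the replicate. Red T-Co points lie to the right of the blue T-TSU points for Kupffer cell markers (0.36 to 0.73 against -0.78 to 0.14) and acute phase proteins (0.33 to 0.80 against -0.12 to 0.06) and to the left for male-biased genes (-1.57 to -0.78 against -0.66 to 0.02).

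Genes of the receptor families that TSU68 inhibits showed no shared direction in whole liver, and none had an adjusted p under 0.1. Of 9 VEGF ligands and receptors, 1 was higher and 1 lower. Flt1, which encodes VEGF receptor 1, read 116, 164 and 186 in T-Co and 21.6, 57.5 and 102 in T-TSU (-1.43 ± 0.46, adjusted p = 0.315). This was at its brightest probe set, and its other 2 differed by -0.40 and 0.42. Kdr, VEGF receptor 2, read 188, 193 and 232 against 169, 157 and 143 (-0.37 ± 0.22, 0.616), with no overlap. Vegfa read 517, 718 and 620.2 against 979, 665 and 828, and the co-receptor Nrp1 read 1549, 1781 and 1424 against 2374, 1821 and 2247 (0.43 ± 0.14, 0.32). None of 5 PDGF genes differed at an unadjusted p under 0.05 by limma (the count of adjusted calls was 0 too), and Pdgfra (-0.51 ± 0.29) and Pdgfrb (0.50 ± 0.37) had opposite signs. Of 9 FGF genes, 1 was lower, the co-receptor Klb, at 1103, 1152 and 909.8 against 734, 803 and 624 (-0.55 ± 0.16, 0.244). Its partner in hepatocytes, Fgfr4, differed by 0.04 ± 0.15 at its brightest probe set and by -0.69, -0.31 and -0.12 at the others. Of 11 feedback and target genes of receptor kinase signalling, 1 was higher and 1 lower, with a median of -0.14. The 1 higher became 0 without T-TSU replicate 2, and the 1 lower became 2 without T-Co replicate 10. Egr1 read 155, 486 and 395 against 189, 72.1 and 47.7 and overlapped (-1.74 ± 0.50, 0.250). Myc went the other way without overlap, at 4.01, 47.1 and 58.9 against 142, 91.3 and 341 (2.30 ± 0.95, 0.419). The value of 4.01 lay below the 7.92 added to each intensity, and NT-Co read 355, 109 and 9.81. Over the alternative settings the Myc difference ranged from 1.41 to 2.79. Dusp6, a feedback phosphatase of ERK, differed by -0.65 ± 0.36.

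Immediate early genes, switched on within minutes by growth factors, stress or handling, had 9 of 28 members lower and 1 higher, with a median of -0.63. Without T-Co replicate 13 there were 6 lower and a median of -0.38. Junb read 316, 611 and 461 in T-Co and 177, 205 and 125 in T-TSU (-1.39 ± 0.46, adjusted p = 0.325), and Jun read 319.9, 411 and 425 against 71.8, 253 and 274. Heat shock and ER chaperones had 6 of 34 lower and 0 higher, with a median of -0.30. The 6 became 10 without T-Co replicate 10, 3 without T-Co replicate 13 or T-TSU replicate 2 and 2 without the intensity trend. Hspa5, the ER chaperone BiP, read 20919.8, 14048 and 13333 against 10265, 10392 and 9835 (-0.63 ± 0.20, 0.296). Stress genes downstream of ATF4 had 4 of 17 lower and 0 higher, and 2 without T-TSU replicate 2. Ddit4, an inhibitor of mTORC1, read 387, 2082 and 3629 against 100.3, 572 and 334. The metallothioneins, which buffer zinc and copper, overlapped between the groups. Mt1 read 19020.5, 31084 and 34018 against 3636, 22647 and 16518, all above the NT-Co mean of 2805. The NT-Co arrays read 4880.0, 1921 and 1616, so T-TSU replicate 2 lay within their range.

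Among lipid genes, fatty acid oxidation and ketogenesis had 10 of 38 members higher and 2 lower, with a median of 0.24. The 10 became 17 without T-Co replicate 9, and the 2 became 6 without T-TSU replicate 12. The median was 0.09 without T-Co replicate 13. Acaa1a, a peroxisomal thiolase, read 582, 417 and 437 in T-Co and 881, 1078 and 1054 in T-TSU (1.07 ± 0.22, adjusted p = 0.129). Bdh1, which makes the ketone body hydroxybutyrate, read 4201, 4054 and 1111 against 6286, 6445 and 5465, and Ppara, the receptor that drives this programme, overlapped (0.92 ± 0.31). Fatty acid synthesis had 6 of 29 higher and 2 lower, and 4 lower without T-Co replicate 10. Srebf1, the master factor of lipogenesis, read 1716, 1261 and 1917 against 4998, 2508 and 2472 (0.96 ± 0.26, 0.219), and Thrsp read 9058, 5879 and 9594 against 15355, 12129.7 and 19796 (0.95 ± 0.26, 0.225). Both did so without overlap.

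Cholesterol genes had 8 of 26 members lower and 0 higher, with a median of -0.26, and here the values depended on T-Co replicate 13. Sqle, squalene epoxidase, read 114, 131 and 3077 in T-Co and 35.7, 123 and 77.4 in T-TSU, and Nsdhl read 799.8, 892 and 3946 against 644, 695 and 405. Without T-Co replicate 13 the list had 4 lower members and a median of -0.06. The count was 13 without T-Co replicate 9, 4 without T-TSU replicate 2, 5 without T-TSU replicate 12 or 14, 5 with only the T-TSU and T-Co arrays and 4 with a robust prior or without the intensity trend. In bile acid synthesis and signalling, 3 of 20 were higher and 6 lower, and the 3 became 1 without T-TSU replicate 2. Cyp7a1, the rate-limiting enzyme of bile acid synthesis, differed by 0.18.

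Urea cycle and amino acid catabolism had 13 of 39 members lower and 1 higher, with a median of -0.13. The 13 became 7 without T-TSU replicate 2, 7 without the intensity trend and 6 after quantile normalization. The lower members included enzymes on the path from methionine to cysteine. Mat1a, which makes S-adenosylmethionine, read 24666, 24217 and 29500.3 in T-Co and 12234, 19786 and 15524 in T-TSU (-0.74 ± 0.16, adjusted p = 0.135). Cbs read 6021, 6022 and 6184 against 4409.8, 4845 and 3734 (-0.50 ± 0.12, 0.177), and Cth read 13431, 14342 and 16423 against 11454, 9600.4 and 9205 (-0.55 ± 0.12, 0.138). No overlap was seen at these genes, and Cbs lay below its NT-Co mean of 6702. Asl, the urea cycle enzyme after argininosuccinate synthase, read 9356, 11062 and 9971 against 4552, 6479 and 7898 (-0.72 ± 0.17, 0.177). In gluconeogenesis and fasting genes, 4 of 25 were lower and 0 higher, 7 without T-Co replicate 9 and 2 without the intensity trend. Got1, the cytosolic aspartate aminotransferase, read 7507, 9644 and 7449.8 against 2073, 4530.4 and 4319.5 (-1.24 ± 0.25, 0.126).

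Clock genes had 2 of 19 members higher and 3 lower, with a median of 0.25, and the counts depended on single arrays. The 2 became 7 without T-Co replicate 10 and 4 without T-TSU replicate 14. The 3 became 1 without T-Co replicate 13, T-TSU replicate 2 or the intensity trend. The median was -0.04 without T-Co replicate 9 and 0.11 without T-TSU replicate 12. Per2 read 354, 251 and 313 in T-Co and 491, 558 and 471 in T-TSU (0.72 ± 0.19, adjusted p = 0.207), with NT-Co at 232. Arntl, the activator of the loop, read 58.1, 60.7 and 293 against 53.2, 15.7 and 54.1, with NT-Co at 491. Dbp, a clock output factor, read 1263, 2465 and 158 against 4343, 1466 and 1652, so T-Co replicate 13 differed from the other T-Co arrays at both genes. The sources used here do not give the hour of collection.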

How the data were processed

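Livers were profiled on a mouse 3′ expression array from labelled cRNA, per the labels' protocols. The authors deposited linear intensity values, 1 per probe set and array. The sources used here do not name the summarisation software. The trimmed mean (2% off each end) was equal on all 9 arrays, at 500.3.

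The deposited intensity values were transformed to log2(intensity + 7.92), the 10th percentile of all values, and not normalized further. Of 22690 probe sets, 64 controls and the 6788 with a mean log2 level under the 30th percentile (intensity 36.2) were left out. All 9 arrays entered a group-means fit in limma 3.58.1 (R 4.3.3) with empirical Bayes moderation and an intensity trend (6 residual degrees of freedom), tested on simulated data. The contrast was two-sided, with Benjamini-Hochberg adjustment over 15838 probe sets. An exact permutation test of 3 against 3 cannot go below 0.1 and was not used.

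Lists use the brightest probe set per gene. Names come from the platform annotation, where 20380 probe sets have 1 gene, 691 several and 1555 none. 20351 matched RefSeq. The members and lists were chosen with earlier results of these data known. Genes named are those called at 0.05, the 15 rises and 15 falls of smallest p without overlap, up to 4 per list of smallest p, and a set of drug, cytokine and kinase genes. Others named, among them Surf1, Alad, Igf1, Stat5b, Socs2, Hsd3b7, Ces1c, Ces1g, Srxn1, Txnrd1, Adgre1 and further list members, were chosen after their values were seen. Alternatives were the fit, filter, pseudocount, scaling and each array left out.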

Additional observations from a re-analysis of the deposited data

How the results depend on the processing

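The number of probe sets with an adjusted p under 0.05 (8) was 0 with only the T-TSU and T-Co arrays, 0 without the intensity trend, 14 with a robust prior, 5 with array weights, 0 with no filter, 26 with a pseudocount of 50, 0 after centring and 1 after quantile normalization, and 0 to 58 with 1 array left out. The number under 0.1 (30) was 6 with only those arrays, 2 without the trend and 0 to 195 with 1 array left out. Lower complement genes (13) were 8 without the trend, 8 centred and 6 quantile-normalized. Lower cholesterol genes (8) were 5 with 2 groups, 4 without the trend, 4 with the robust prior, and 4 to 13 leaving out arrays. Lower urea cycle genes (13) were 7 without the trend, 6 quantile-normalized, and 7 to 13. Lower hepatocyte markers (9) were 2 without the trend, 4 with no filter, 3 centred, 3 quantile-normalized, and 3 to 9. Leaving out arrays gave 7 to 13 higher glutathione genes, 9 to 17 fatty acid oxidation genes and 9 to 19 lower Kupffer markers. Counting every probe set of the glutathione genes gave 20 higher, of more tested. Centring moved the median gene to 0.03, with 6.02% higher and 4.74% lower. The cause was not tested.

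Signs turned for Cyp3a11 (0.10, quantile) and, leaving out arrays, for Cyp1a1 (-0.29 to 0.01), Fgfr2 (-0.23 to 0.29), Fgfr4 (-0.03 to 0.11), Hbb-b2 (-0.57 to 0.18), Klf1 (-0.03 to 0.53), Krt19 (-0.62 to 0.03), Pdgfa (-0.02 to 0.62), Pdgfb (-0.35 to 0.02), Pdgfc (-0.05 to 0.25), Pdgfrb (-0.00 to 0.77) and Tiparp (-0.51 to 0.00). Over 212 probe sets of the named genes and 19 settings, 3846 values kept direction and side of the threshold, 66 gained it, 76 lost it and 14 turned. Of 51 list medians, 36 kept their sign in every setting that gave a value. Cholangiocyte markers had no member left with the filter at the 50th percentile. No paired analysis was possible because T-Co and T-TSU share no replicate numbers. Arrays give no read depth, and 3 per group limit the precision.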

Other observations

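Red cell markers had 2 of 6 tested members higher and 0 lower at an unadjusted p under 0.05, with a median of 0.06, or -0.13 without T-Co replicate 13. The differences were above 0 for 3 and below 0 for 3, the beta-globin gene Hbb-b2 among the latter at -0.31. Its other tested probe set differed by 0.53. Alas2, the erythroid first enzyme of haem synthesis, which male mouse liver also expresses, read 723, 1016 and 276 in T-Co and 2057, 1142 and 2120.1 in T-TSU (1.52 ± 0.38, adjusted p = 0.191). Alad, the next enzyme, which is on no list and was named after its value was seen, read 5138, 3804 and 2986 against 8454, 6597 and 7255 (0.93 ± 0.18, 0.107). Neither overlapped. The summed red cell markers were 709 to 1739.7 in T-Co, 1845 to 2822 in T-TSU and 2625 to 3016 in NT-Co, with Alas2 the brightest part, and Hba-a1, an alpha-globin gene, was below the filter. Markers of pancreas and gut, which could enter a dissection, summed to 2110.1 to 3644 in T-Co, 4788 to 5841 in T-TSU and 5383 to 6242 in NT-Co. Their tested members include Fabp2, which liver also expresses, at 1985, 1790.2 and 714 against 3368, 2822 and 3620.0, while Ctrb1, Cpa1 and Ins2 were below the filter. Their part in the other results was not tested.

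Lysosomal genes had 9 of 36 members lower and 1 higher, led by Ctsl, with a median of -0.10. The 9 became 5 after centring, 4 without T-Co replicate 13 and 3 without T-TSU replicate 2, and the 1 became 5 without T-Co replicate 10. The macrophage markers Cd68 and Ctss are among them. Phosphatidate phosphatases differed by member. Plpp1 and Plpp2 (-0.87 ± 0.23) read lower and Plpp3 higher (0.48 ± 0.18), with overlap for Plpp3. A second Plpp1 probe set differed by -0.84 ± 0.44 and overlapped. Mgll, monoglyceride lipase, read 1956, 2194 and 1269 against 3002, 3492 and 2875 (0.82 ± 0.18, adjusted p = 0.146), and its 3 probe sets all did so without overlap. Proliferation genes had 4 of 28 higher and 0 lower, and 2 without T-Co replicate 13, without T-TSU replicate 2 or with the filter at the 50th percentile. Tk1, thymidine kinase, read 258, 384 and 376 against 794, 613 and 621 (0.99 ± 0.20, 0.129). None of 40 cytosolic ribosomal protein genes differed at an unadjusted p under 0.05 by limma, so the count was 0 of 40, with a median of -0.07, and 3 were higher without T-TSU replicate 2.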
